A study of Homo sapiens with 4 samples.

Results

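The ERBB2 amplicon is the stretch of chromosome arm 17q around the receptor gene ERBB2, and 10 of its genes were followed here: ERBB2, GRB7, STARD3, PGAP3, MIEN1, TCAP, PNMT, IKZF3, ORMDL3 and GSDMB. They were found by their NCBI Gene IDs, and all 10 were listed among the 18882 gene IDs of the series. RNA was sequenced from BT-474, an established breast cancer cell line of luminal B-like origin, in 2 control libraries, labelled wild-type, and in 2 from BT-474 NRP-1 cells. The BT-474 NRP-1 cells carry a plasmid that expresses the receptor neuropilin-1 and were selected with Geneticin, from colonies picked after transfection. The labels give the control cells no plasmid. The study's methods describe an empty-plasmid line, but not that it was sequenced, so plasmid, selection and NRP-1 cannot be told apart, and whether the NRP-1 libraries come from 1 clone is not stated. The question was how NRP-1 overexpression changes the RNA of these cells, and here how it bears on the amplified receptor and its neighbours.

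In part of breast cancers the ERBB2 region is present in many extra copies, and BT-474 is a widely used model of this state. ERBB2 (HER2) is a receptor tyrosine kinase that pairs with other ERBB receptors and signals through RAS and PI3K. Genes close to a driver are copied with it whether or not the cell uses them, so an amplicon holds both strongly transcribed genes and genes that belong to other tissues. These data hold RNA only, and copy number was not measured.

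Each library held between 8243595 and 8448926 expected counts, the estimated number of reads per gene, and between 17239 and 17321 listed genes. NRP1 was checked first and was higher in both NRP-1 libraries, by 3.38 on the log2 scale (SE 0.42, edgeR quasi-likelihood adjusted p = 0.044). Its level was low, with 7 and 8 reads in control, then 103 and 62 in NRP-1 replicates 2 and 3. Per length these 2 libraries held 2.46 and 1.3 FPKM of NRP1, where the median listed gene had 6.23 and 6.19 FPKM. The luminal markers were present, with a summed level of 3191.58 to 3289.7 FPKM in control cells and 3625.71 to 4037.03 FPKM in BT-474 NRP-1 cells over all 9 markers. The keratins KRT19, KRT8 and KRT18 made up most of this sum, at 1243, 1139 and 699 FPKM on average. They, FOXA1 and GATA3 were higher in both NRP-1 libraries than in either control, while EPCAM and CDH1 were lower in both. ESR1 and PGR averaged 8.53 and 7.36 FPKM, with the NRP-1 libraries on both sides of the controls. The sum thus does not show how each marker moved. The 6 basal and mesenchymal markers were low, but their sum was 4.01 to 4.82 FPKM in control cells and 10.85 to 21.9 FPKM in BT-474 NRP-1 cells, mostly through VIM (69 and 48 reads against 371 and 147), with KRT14 listed in no library. Their part in the results was not tested. FPKM is the number of fragments per length of transcript and depth of library, so it allows levels of different genes to be compared. Nothing in the labels says whether the libraries of a group came from separate cultures, so p-values measure the spread between these libraries only.

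RefSeq's table of windows around gene starts (GRCh38.p14, 250 bases before to 50 after) held 5 of the 10 genes, ERBB2, STARD3, PGAP3, MIEN1 and ORMDL3. The windows of 4 of them are shown, which are those that hold the motif marked below. ORMDL3, which averaged 486 FPKM, has 3 windows without a match and is not shown. ERBB2 and PGAP3 have listed starts back to back. Their listed starts lie 37 bases apart on opposite strands, and their windows share 136 bases, from position 39688008 to 39688143 of chromosome 17. Capitals mark each match, on either strand, to CCGGAAG, the core letters that ETS family factors bind, a motif chosen for display among 3 after the matches were seen.

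ERBB2, chr17:39687844-39688143, plus strand: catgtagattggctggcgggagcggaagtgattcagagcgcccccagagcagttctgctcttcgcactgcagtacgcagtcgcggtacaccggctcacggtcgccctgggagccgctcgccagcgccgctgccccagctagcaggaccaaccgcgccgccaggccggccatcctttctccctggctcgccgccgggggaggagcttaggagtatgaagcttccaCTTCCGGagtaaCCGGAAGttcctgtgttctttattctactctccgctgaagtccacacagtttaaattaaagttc
PGAP3, chr17:39688008-39688307, minus strand: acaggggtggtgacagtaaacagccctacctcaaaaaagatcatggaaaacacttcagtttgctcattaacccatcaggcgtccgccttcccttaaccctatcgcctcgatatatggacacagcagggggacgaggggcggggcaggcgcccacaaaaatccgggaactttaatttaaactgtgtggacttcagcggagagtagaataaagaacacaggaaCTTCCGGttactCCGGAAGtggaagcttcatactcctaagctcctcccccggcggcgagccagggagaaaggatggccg
STARD3, chr17:39636894-39637193, plus strand: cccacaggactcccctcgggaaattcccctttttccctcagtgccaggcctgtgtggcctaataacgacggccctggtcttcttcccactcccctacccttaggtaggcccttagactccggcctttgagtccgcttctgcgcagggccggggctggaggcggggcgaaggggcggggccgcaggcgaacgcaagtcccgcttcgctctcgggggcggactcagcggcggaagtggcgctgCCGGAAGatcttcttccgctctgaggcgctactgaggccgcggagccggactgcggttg
MIEN1, chr17:39730483-39730782, minus strand: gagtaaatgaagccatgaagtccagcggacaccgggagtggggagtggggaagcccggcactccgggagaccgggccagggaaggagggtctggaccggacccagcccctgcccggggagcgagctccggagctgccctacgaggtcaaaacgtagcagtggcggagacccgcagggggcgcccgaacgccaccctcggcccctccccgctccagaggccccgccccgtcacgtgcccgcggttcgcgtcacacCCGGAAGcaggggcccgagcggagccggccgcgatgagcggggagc

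The windows of ERBB2, PGAP3, STARD3 and MIEN1 held 6 matches to CCGGAAG at 4 distinct sites, since the 2 sites of ERBB2 are also those of PGAP3. These shared sites start 12 bases apart. In STARD3 the match starts 9 bases before the listed start, and in MIEN1 at base 5 after it. Of all 35116 windows of this length, 10.3% held at least 1 match. CCGGAAG itself holds a CG, and the share among windows as rich in CG was not counted, so no excess is read from this. ORMDL3, with 3 listed windows, held none. The other motifs were searched on both strands as well. GCCNNNGGC (TFAP2 factors) was found in 1 of the 7 windows of the 5 genes, that of STARD3, against 23.2% of all windows. CCAAT was found in 1 of the 7, that of ERBB2, against 34.6%. The windows do not show which start these cells use, and a match to letters is not evidence of binding. For ERBB2, of which 2 transcripts were counted, only the listed start is covered, and a start elsewhere would not be shown. CpG dinucleotides numbered 24 in the ERBB2 window, 27 in STARD3, 15 in PGAP3, 32 in MIEN1 and 13, 32 and 20 in the 3 windows of ORMDL3, against a median of 14 over all windows.

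ERBB2 itself was among the most abundant RNAs of the cell. It had 46249 and 50435 reads in control replicates 1 and 2, and 59100 and 47135 reads in NRP-1 replicates 2 and 3. This is 0.558% to 0.704% of all reads, and by reads ERBB2 ranked from 1 to 5 in the libraries. Per length it stood at 1199.97 and 1299.49 FPKM in control cells and 1509.4 and 1195.84 FPKM in BT-474 NRP-1 cells, ranks 15 to 31. The groups overlapped, because NRP-1 replicate 2 was the highest library and NRP-1 replicate 3 the lowest per length. The genes nearest in mean level were SCGB1D2 (1404 FPKM) and RPS27 (1325 FPKM) above it, and KRT19 (1243 FPKM) and TMSB10 (1219 FPKM) below it. By its mean ERBB2 thus stood between a ribosomal protein gene and a luminal keratin, but not in each library. In NRP-1 replicates 2 and 3 it was above RPS27 (1047.73 and 1071.35 FPKM), and in NRP-1 replicate 3 below KRT19 (1247.98 FPKM). The genes whose pattern over the 4 libraries was most like that of ERBB2, among 645 others with a mean of at least 100 FPKM, were CIRBP, DDX17 and ETFA (Euclidean distances of centred log2(FPKM + 1) of 0.037, 0.076 and 0.080).

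The other ERBB receptors were far lower per length. ERBB3, the kinase-impaired partner of ERBB2, lay between 56.87 and 76.18 FPKM, so that ERBB2 was 15.8 to 21.0 times as high in the 4 libraries. EGFR reached at most 22.77 FPKM, and ERBB4 lay between 0.19 and 0.49 FPKM. ERBB2 exceeded EGFR by 56.4 to 99.7 times.

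The other amplicon genes spanned a wide range of level below ERBB2. MIEN1, a small prenylated protein linked to cell migration, came next with a mean of 694 FPKM. ORMDL3, which restrains serine palmitoyltransferase in the endoplasmic reticulum, followed at 486 FPKM. STARD3, a cholesterol-binding protein of late endosomes, averaged 317 FPKM. GRB7, an SH2 domain adaptor that binds activated ERBB2, averaged 311 FPKM. PGAP3, which remodels the lipid of GPI anchors, averaged 238 FPKM, and GSDMB, a pore-forming gasdermin, 141 FPKM. The step to the next gene was larger, since IKZF3, the lymphoid transcription factor Aiolos, averaged 26.8 FPKM. TCAP, the sarcomere protein telethonin, averaged 15.4 FPKM and PNMT, the enzyme that makes adrenaline, 8.51 FPKM.

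**Figure D1:**
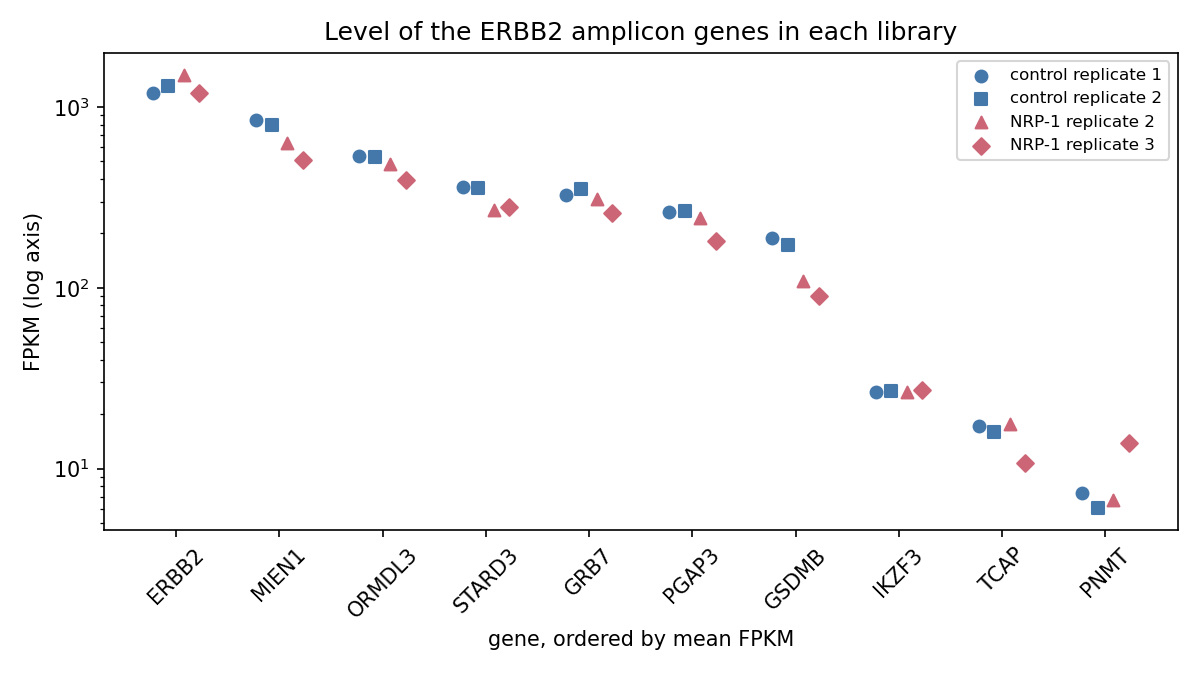
FPKM (log axis) of the 10 genes in each of the 4 libraries, 1 point per library, blue for control and red for NRP-1, ordered by mean. ERBB2 lies highest, GSDMB and the genes above it in the order lie between 89.99 and 1509 FPKM, and IKZF3, TCAP and PNMT lie between 6.03 and 27.3 FPKM.

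The order of these levels was partly resolved. The ranges over the 4 libraries did not overlap between ERBB2 and MIEN1, ORMDL3 and STARD3, GSDMB and IKZF3, or IKZF3 and TCAP. They overlapped between MIEN1 and ORMDL3, STARD3 and GRB7, GRB7 and PGAP3, PGAP3 and GSDMB, and TCAP and PNMT. STARD3 exceeded GRB7 in 3 of 4 libraries, and their means differed by a ratio of 1.02. Counted as reads rather than per length, IKZF3 moved up to ranks 692 to 714 from ranks 2883 to 3028, as its transcripts average at least 9093 bases in the files, while MIEN1, at 781 bases, moved down to ranks 157 to 357 from 68 to 104.

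In each library 7 of the 10 genes, all but IKZF3, TCAP and PNMT, were within the top 5% of listed genes by FPKM. Of all 20052 protein-coding genes in RefSeq, 3.11% averaged at least 100 FPKM, and the same 7 genes did. Together the 10 genes took between 0.911% and 1.11% of all reads, and ERBB2 alone made up 53.6% to 63.3% of that.

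Several genes stood well above their paralogs. ORMDL3 was 36.9 to 39.8 times as high as ORMDL1, and ORMDL2 did not exceed 34.2 FPKM. GRB7 was 10.6 to 15.1 times as high as GRB10, STARD3 10.9 to 20.6 times as high as STARD3NL, and GSDMB 7.06 to 17.4 times as high as GSDMD, its most abundant paralog here. IKZF3 was 8.64 to 12.3 times as high as IKZF5, its most abundant paralog here, 11.4 to 21.9 times as high as IKZF2 and 14.6 to 18.0 times as high as IKZF4. IKZF1, the founding member of the family in lymphocytes, did not exceed 0.24 FPKM. Each of these held in 4 of 4 libraries.

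TCAP, a gene of striated muscle, was read against markers of that tissue. Of 8 markers, 4 (ACTN2, MYH2, DES and MYOG) were listed in no library. The summed level of the list was 0.47 to 0.80 FPKM in control cells and 0.14 FPKM in both NRP-1 libraries. TCAP alone had 17.24 and 15.96 FPKM in control, then 17.59 and 10.81 FPKM with NRP-1, above the summed markers in every library.

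Along the chromosome, high levels did not stop at the members. Among the 25 protein-coding genes before the span in RefSeq's order, 9 averaged at least 100 FPKM, with a median of 56.0 FPKM. Among the 25 after it, 3 did, with a median of 5.26 FPKM. The median of the 10 members was 275 FPKM, and of all protein-coding genes 3.14 FPKM. Over the 1169 protein-coding genes of chromosome 17 the median was 5.54 FPKM, and 6.33% averaged at least 100 FPKM. The median over the 25 genes after the span was thus not above that of the chromosome. These genes end in KRT24, KRT25, KRT26, KRT27 and KRT28, listed in no library, so this median depends on where the 25 stop. The 5 highest neighbours were the ribosomal protein genes RPL19 (11864 FPKM) and RPL23 (5860 FPKM), the actin-binding protein gene LASP1 (1152 FPKM) and the proteasome genes PSMB3 (891 FPKM) and PSMD3 (805 FPKM). ZPBP2, the 1 gene inside the span that is no member, averaged 0.18 FPKM and lies between IKZF3 and GSDMB. PPP1R1B, next to STARD3, averaged 3.51 FPKM, and GSDMA and LRRC3C, the genes after ORMDL3, 5.25 and 0.56 FPKM (these neighbours were chosen for their place, after the values were seen).

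**Figure D2:**
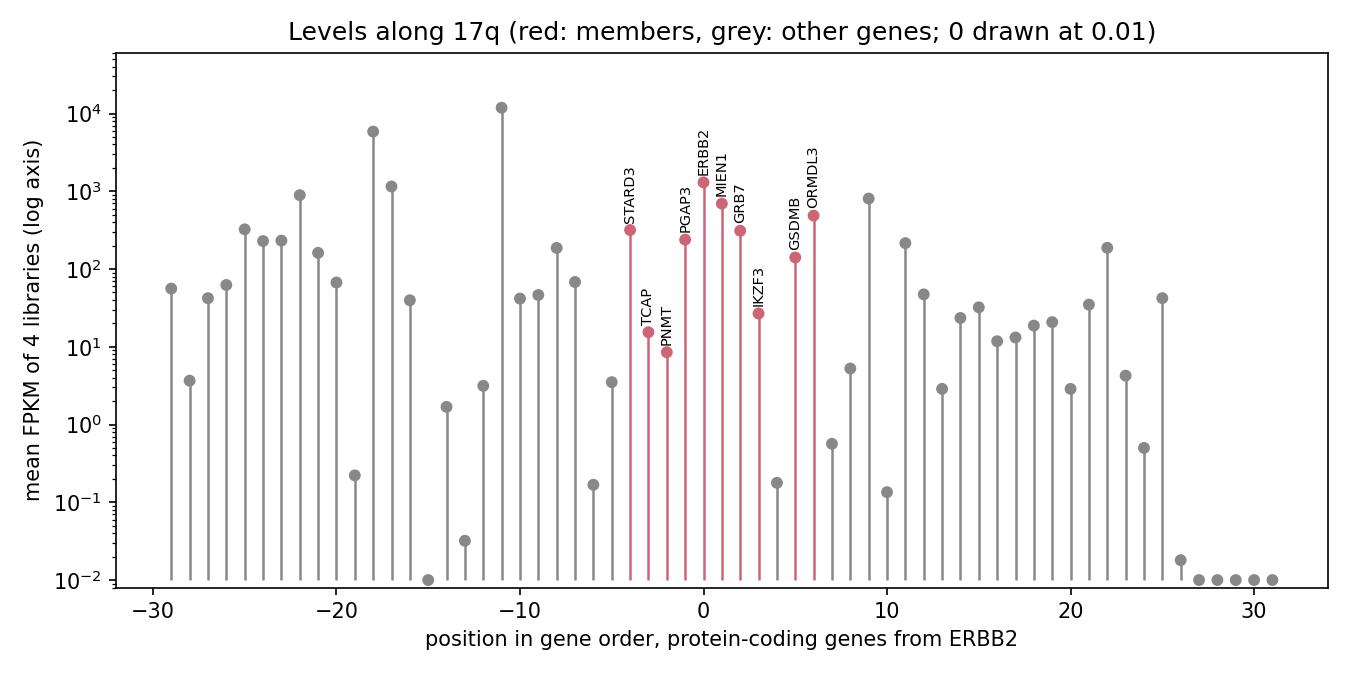
Mean FPKM of the 4 libraries (log axis) of each protein-coding gene by its place in the gene order, counted from ERBB2, red for the 10 members and grey for 51 other genes, with a level of 0 drawn at 0.01. High and low genes alternate inside the span, where TCAP (15.4 FPKM) and PNMT (8.51 FPKM) lie between STARD3 (317 FPKM) and PGAP3 (238 FPKM).

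NRP-1 overexpression was then compared with control. None of the 10 genes passed an adjusted p of 0.05 in edgeR's quasi-likelihood test, against 1.09% of the 14298 genes tested, 0.678% lower and 0.413% higher. At an unadjusted p under 0.05 there were 3 of the 10, GSDMB, MIEN1 and STARD3, all lower, against 22.9% of all genes. All 10 genes passed the filter on low counts. DESeq2 gave an adjusted p under 0.05 to 2 of the 10, GSDMB and MIEN1, both lower, where 3.89% of all genes were lower by that test and 2.78% higher. The median log2 fold change of the 10 genes was -0.30, beside 0.02 over all genes tested. In 6 of the 10 genes both NRP-1 libraries lay below both control libraries in TMM-normalized CPM (reads scaled to a common library size), an order shown by 28.3% of all genes. In 0 of the 10 both lay above, which 27.9% of all genes did. The calls depended on which NRP-1 libraries entered the fit. Without NRP-1 replicate 2, 8 of the 10 genes passed in edgeR, all but ERBB2 and IKZF3, where 36.8% of all genes did, and without NRP-1 replicate 3, 3 of the 10 passed (STARD3, MIEN1 and GSDMB), where 28.2% did. In these fits the spread comes from the control libraries alone. For a single gene the smallest two-sided p of an exact permutation test is 0.33 in this design.

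**Figure D3:**
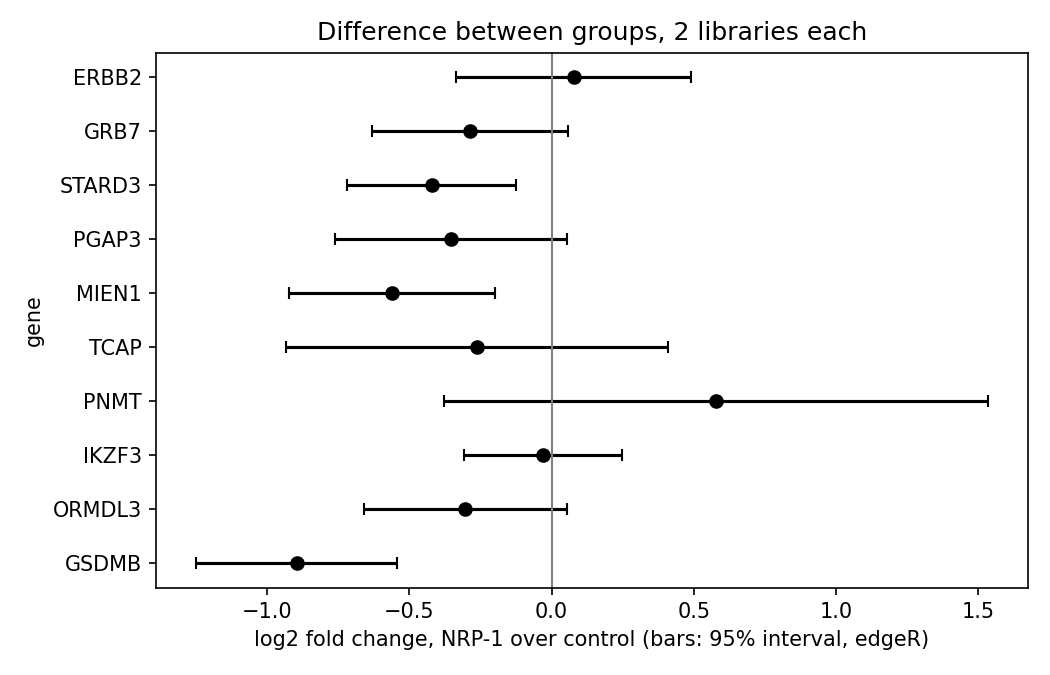
Log2 fold change of NRP-1 over control for each gene (points) with its 95% interval from edgeR (bars), 2 libraries per group. The intervals of GSDMB, MIEN1 and STARD3 lie below 0, and those of the other 7 genes include 0.

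For the receptor, the log2 fold change was 0.08 (SE 0.17, 95% interval from -0.34 to 0.49, edgeR adjusted p = 0.822). This interval spans from 0.792-fold to 1.40-fold. Control libraries averaged 5917 ± 311 CPM (SD, n = 2), and NRP-1 libraries 6242 ± 1000 CPM (SD, n = 2). Without NRP-1 replicate 2 the log2 fold change was -0.11, so its sign rests on that library. GRB7, the adaptor, counted 5983 and 6499 reads in control, then 5777 and 4872 with NRP-1. Both NRP-1 libraries were below both controls, with a log2 fold change of -0.29 (SE 0.14, edgeR adjusted p = 0.285).

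Of the other genes near ERBB2, MIEN1 counted 5274 and 5000 reads in control, then 3999 and 3252 with NRP-1. The groups did not overlap, and the log2 fold change was -0.56 (SE 0.15, edgeR adjusted p = 0.104, DESeq2 adjusted p = 0.0432). STARD3 counted 8502 and 8418 reads in control, then 6427 and 6740 with NRP-1. Here the libraries within each group lay close together, and the log2 fold change was -0.42 (SE 0.12, edgeR adjusted p = 0.121). PGAP3 counted 5869 and 6028 reads in control, then 5529 and 4168 with NRP-1. NRP-1 replicate 2 lay near the controls and NRP-1 replicate 3 well below, with a log2 fold change of -0.35 (SE 0.17, edgeR adjusted p = 0.271). Leaving out NRP-1 replicate 2 moved it to -0.58, and leaving out the other moved it to -0.16.

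At the far end of the span, GSDMB showed the largest difference of the 10 genes. It counted 2537.06 and 2336.2 reads in control, then 1494 and 1235 with NRP-1. This is 298 ± 20.0 CPM (SD, n = 2) against 160.3 ± 21.7 CPM (SD, n = 2), 0.537-fold with a 95% interval from 0.421 to 0.687. The log2 fold change was -0.90 (SE 0.14, edgeR adjusted p = 0.055, DESeq2 adjusted p = 2.62e-04), and leaving out 1 library at a time gave -1.05 to -0.76. It ranked 215 of 14298 genes by p. ORMDL3, its neighbour, counted 9564 and 9492 reads in control, then 8816 and 7272 with NRP-1. Both NRP-1 libraries were lower, with a log2 fold change of -0.30 (SE 0.15, edgeR adjusted p = 0.277).

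Among the genes of other tissues, IKZF3 counted 2033.56 and 2066.06 reads in control, then 2046.88 and 2133.8 with NRP-1. It had the narrowest interval of the 10, with a log2 fold change of -0.03 (95% interval from -0.31 to 0.25, edgeR adjusted p = 0.899), which was 0.0028 with library sizes in place of TMM. TCAP counted 134 and 125 reads in control, then 139 and 86 with NRP-1. PNMT had 57 and 47 reads against 53 and 109. In both genes NRP-1 replicate 2 lay near the controls and NRP-1 replicate 3 apart from them, lower for TCAP and higher for PNMT. The log2 fold change of TCAP was -0.26, and 0.04 without NRP-1 replicate 3, and that of PNMT 0.58, and -0.03 without NRP-1 replicate 3. In bulk RNA fewer cells of a kind and less RNA per cell cannot be told apart.

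The NRP-1 libraries differed from each other more than the control libraries did. NRP-1 replicate 3 was lower than NRP-1 replicate 2 by a log2 difference of -0.33 for ERBB2, -0.25 for GRB7, -0.41 for PGAP3, -0.30 for MIEN1, -0.28 for ORMDL3 and -0.28 for GSDMB. STARD3 was the exception among the 7 highest genes, at 0.07. Between control replicates 2 and 1 the same 7 genes differed by log2 values from -0.14 to 0.11.

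Set against ERBB2 within the same library, a comparison added after the values were seen, most of the genes took a smaller share in BT-474 NRP-1 cells. MIEN1 stood at 70.4% and 61.1% of the FPKM of ERBB2 in control cells and at 41.7% and 42.5% in BT-474 NRP-1 cells. GSDMB stood at 15.8% and 13.3% against 7.27% and 7.53%. ORMDL3 stood at 44.6% and 40.5% against 32.1% and 33.2%, and GRB7 at 27.0% in both control libraries against 20.5% and 21.7%. The 2 NRP-1 libraries, which differed in the level of these genes, were thus close to each other in their ratio to ERBB2. PGAP3 stood at 21.8% and 20.6% against 16.1% and 15.2%, and STARD3 at 30.2% and 27.4% against 17.9% and 23.5%. In 7 of the 9 genes, TCAP included, both NRP-1 ratios were below both control ratios, an order shown by 30.1% of 14297 tested genes set against ERBB2 in the same way. The median ratio of the group means was 0.768 over the 9 genes and 0.969 over all of these genes. All such ratios share ERBB2 as their denominator and are not independent, and a ratio shows unequal levels without saying which gene moved.

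**Figure D4:**
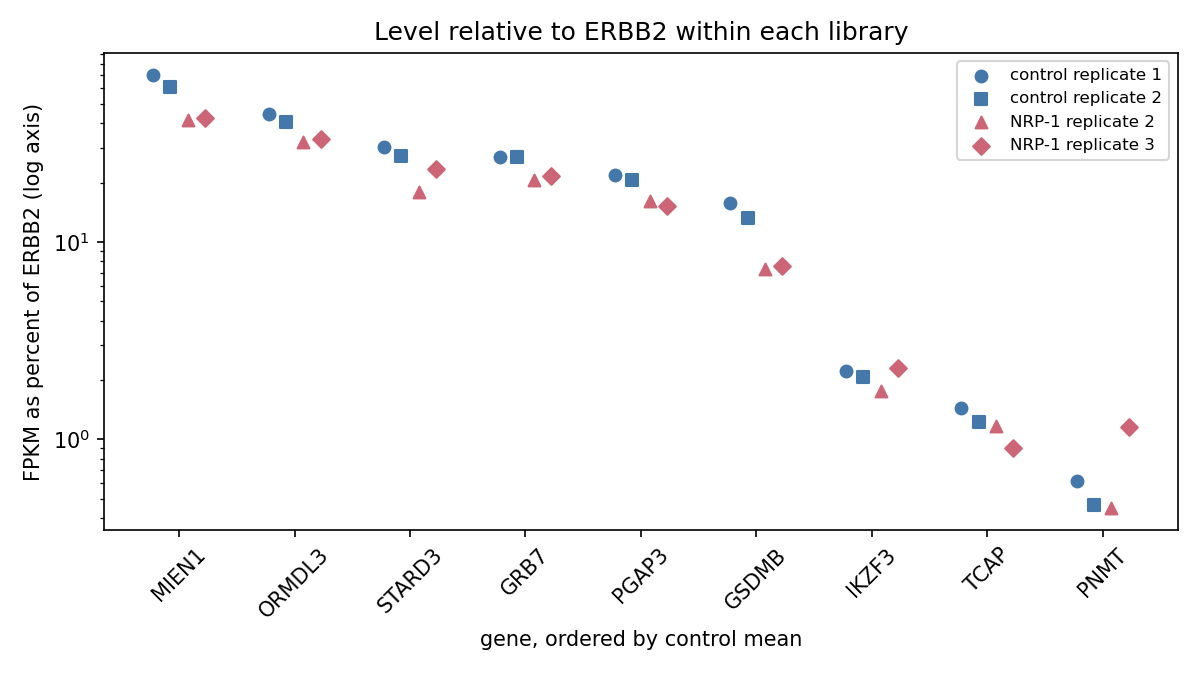
FPKM of each gene as a percent of ERBB2 in the same library (log axis), 1 point per library, blue for control and red for NRP-1. The red points of 7 genes lie below both blue points, while those of IKZF3 and PNMT overlap with them.

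Neighbouring genes outside the span showed both directions. None of the 38 tested of 51 neighbours passed an adjusted p of 0.05 in edgeR. Their median log2 fold change was -0.01, with -0.11 over the 21 tested before the span and 0.18 over the 17 tested after it. Both NRP-1 libraries were below both controls in 13 of the 38 and above in 12, near the 28.3% and 27.9% of all genes. Over the 38 the log2 fold change ran from -2.21 (PPP1R1B) to 1.16 (CCR7), both genes of few reads. The 5 highest by FPKM are given next. RPL23 showed a log2 fold change of -0.83 (edgeR adjusted p = 0.0547), RPL19 one of -0.46 (edgeR adjusted p = 0.179), LASP1 one of 0.42 (edgeR adjusted p = 0.156), PSMD3 one of 0.20 and PSMB3 one of 0.08. At an adjusted p under 0.05 DESeq2 gave 5 lower and 2 higher among the 38 neighbours, where 3.89% of all genes were lower and 2.78% higher.

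Of 42 genes for the receptors, adaptors and kinases through which ERBB2 signals, 41 were tested and 0 passed in edgeR. DESeq2 gave 2 higher and 1 lower, where 2.78% of all genes were higher and 3.89% lower. Their median log2 fold change was 0.14, and 13 of the 41 were below 0. AKT1, the kinase downstream of PI3K and the most abundant of the list, counted 4909 and 5217 reads in control, then 7397 and 9208 with NRP-1. Both NRP-1 libraries were higher, with a log2 fold change of 0.65 (SE 0.15, edgeR adjusted p = 0.0823). ERBB3 had a log2 fold change of -0.24, the cyclin gene CCND1 one of 0.37, MAP2K2 one of -0.27 and BAD one of 0.15, with adjusted p between 0.33 and 0.709 in edgeR. Of 32 genes for ligands, chaperones, turnover and transcription of ERBB2, 27 were tested and 0 passed in edgeR, while DESeq2 gave 2 higher, against the same 2.78% of all genes. The chaperone genes HSP90AA1 and HSP90AB1, whose products hold ERBB2 stable, had log2 fold changes of 0.43 (adjusted p = 0.303) and 0.23 (adjusted p = 0.516) in edgeR, and their co-chaperone CDC37 one of -0.08. YBX1 had one of 0.32, and ELF3, an epithelial ETS factor, one of -0.65 (edgeR adjusted p = 0.299).

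Some of these counts can hold reads of another gene, which was checked after the values were seen. In the GENCODE 29 models matched by name to the counted transcripts, ERBB2 and PGAP3 share 194 exon bases on opposite strands. This is 7.09% of those of PGAP3 and 3.64% of those of ERBB2. The sources used here do not say whether strand was used in counting. Over all annotated transcripts, MIEN1 shares 571 exon bases with ERBB2, but the matched models share none. A matched model can differ from the transcript counted. That of MIEN1 has 1006 exon bases, where its length in the files is 781, so shared reads of MIEN1 and ERBB2 are not excluded. Stretches of 50 bases that also occur in transcripts of another gene made up 1.67% of GSDMB, 1.65% of IKZF3 and 0.129% of ERBB2, and 0% of the other 7. The counts of GSDMB in 2 libraries and of IKZF3 in 4 were not whole (tolerance 0.005), while all others were.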

How the data were processed

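RNA was measured in 2 control and 2 NRP-1 libraries of BT-474. The authors deposited an expected count per gene, not normalized, and FPKM, normalized for transcript length and mapped reads. The paper names HISAT/Bowtie2, and the submitters' processing notes name bcl2fastq 2.16, HISAT2 2.0.1, Bowtie2 2.2.5, RSEM and the builds GRCh38 and hg19 without their roles, so coordinates are given for RefSeq sequences only. A deposited table of the authors' comparison (mean FPKM, ratios, scores) was not used. RefSeq (GRCh38.p14) named 99.3% of 18882 gene IDs. A gene absent from a library's file was set to 0.

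Expected counts were rounded and compared with edgeR 4.0.16 in R 4.3.3 (filterByExpr, TMM with factors from 0.986 to 1.014, glmQLFit, glmQLFTest, group as the only term), with Benjamini-Hochberg adjustment over 14298 genes. Standard errors are the absolute log2 fold change over the square root of F, and 95% intervals use the t quantile of the fit. As alternatives, DESeq2 1.42.0 was run, TMM or the filter was dropped, each library was left out, and limma 3.58.1 (trend) was run on FPKM, where the mean reached 0.5, after adding 1 or 0.1 and taking log2. All tools were tested on simulated data first. There unchanged genes gave p-values near or under their nominal rate, but with a dispersion particular to each gene the share of false calls among adjusted calls exceeded the nominal level for each tool. Members and lists were chosen with earlier results of these data known. Named genes are the 10 members, NRP1 and the 5 highest by FPKM of the neighbours, the signalling list and the list of ERBB2 ligands, chaperones, turnover and transcription. Genes of each list past the threshold in edgeR were to be named, but none passed. Also named are 3 genes like ERBB2 in pattern and 4 in level, neighbours picked for place or extreme change, paralogs, and some markers from fixed lists. The lymphoid and adrenal marker lists are not reported here. Python 3.11.15 was used for the rest.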

Additional observations from a re-analysis of the deposited data

How the results depend on the processing

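No paired analysis was possible because the groups share only replicate number 2, and the labels do not say that it marks a shared culture. The count of 0 of the 10 genes at an adjusted p under 0.05 was 2 with DESeq2 and 0 with library sizes, without a filter and in both limma fits, and it ran from 0 to 8 with each library left out. Of all genes, 156 were called by edgeR, 954 by DESeq2, 0 without a filter (3297 at an unadjusted p under 0.05), 7 by limma with a pseudocount of 1 and 3 with 0.1, and from 0 to 5414 with each library left out. For the signalling list DESeq2 called 3 genes and for the 17q neighbours 7, where edgeR called 0, and with each library left out the counts ran from 0 to 22 and from 0 to 26. The highest counts came without NRP-1 replicate 2, and the lowest, 0, without either control library. Without an NRP-1 library the spread is taken from the control libraries alone and the lone NRP-1 library is assumed to vary like them. The log2 fold change changed sign for IKZF3 with library sizes (0.0028) and by limma with a pseudocount of 1 (0.0139) or 0.1 (0.0144). With each library left out it ran from -0.105 to 0.233 for ERBB2 (negative without NRP-1 replicate 2), from -0.659 to 0.0448 for TCAP and from -0.03 to 0.996 for PNMT (turned without NRP-1 replicate 3). In the other 47 of 50 comparisons of a gene with an alternative setting the direction held, and 2 of them, MIEN1 and GSDMB with DESeq2, passed the threshold. The median of the 10 genes, -0.30, ran from -0.443 to -0.165 with each library left out. TCAP, with 86 to 139 reads per library, and PNMT, with 47 to 109, had the fewest reads and the largest standard errors of the 10 genes (0.27 and 0.39).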
